A study of Sus scrofa with 15 samples.

Results

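Genes of cellular iron handling were followed in the testes of 21-day-old male piglets on 5 diets. They were a list of 10 taken by symbol from the deposited table of 30476 genes: TFRC, STEAP3 and SLC11A2 (uptake), FTH1, FTL and NCOA4 (storage), HMOX1 (iron recovery from heme), SLC40A1 (export), and IREB2 and ACO1 (regulation). Of these, 7 had a row in the table, each a single one, and all 7 passed the filter on low counts. FTH1, SLC11A2 and HMOX1 were not analysed here. TFRC had been selected on its levels in these diet groups, so its values are given as a description without a test, and it is left out of every count of called genes.

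TFRC, the transferrin receptor through which cells take up iron, was highest in the piglets given sow milk and lowest in those given cow's milk formula with 17-beta-estradiol. Its mean level was 847 ± 322 CPM (SD, n = 3; CPM are the reads of a gene scaled to a common library size by the TMM method) with sow milk and 111 ± 14.5 (SD, n = 3) with the estradiol formula. Of the others, NCOA4, which delivers stored iron for release, passed the thresholds used here, 2.02-fold lower in the estradiol group than with sow milk, and that call was lost when single libraries were left out. No difference of ACO1 or STEAP3 passed the adjusted test.

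Male Dutch Landrace Duroc piglets suckled until postnatal day 2 and then received 1 of 5 diets from bowls until day 21. The diets were commercially obtained sow milk (Sow), a cow's milk formula (Milk), a soy formula (Soy), and the cow's milk formula with an added compound. In M+E2 this was 17-beta-estradiol, added with the aim of serum concentrations of 15 to 30 pmol/L, which are not measured values. The study measured serum estradiol and reports a substantial increase with the addition, so this aim does not describe the exposure reached. In M+G it was 84 mg/L of genistein, a soy isoflavone. Each group had 3 RNA-seq libraries of whole testis. Sow thus differs from the formula groups in the whole diet, and M+E2 and M+G differ from Milk by 1 added compound. Iron content of the diets, tissue iron and blood values were not analysed here.

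The libraries held from 6097552 to 9488579 reads counted on genes. Sow 2 stood apart from the other libraries. It was left out of the comparisons, which leaves 2 Sow libraries there. Its levels are still given, and 1 Sow and 1 Soy library carry no number in the table. The labels do not state that each library came from a separate piglet, so the p-values measure the spread between these libraries.

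Cells take up transferrin-bound iron by internalising the transferrin receptor, and in the endosome ferric iron is released and reduced by STEAP3. Iron that is not used is stored in ferritin, a shell of heavy (FTH1) and light (FTL) chains, and is recovered when NCOA4 carries ferritin to the lysosome. Ferroportin, the product of SLC40A1, exports iron. The iron regulatory proteins, encoded by ACO1 and IREB2, bind hairpins called iron responsive elements when cell iron is low. This binding stabilises the mRNA of TFRC and blocks translation of ferritin and of a form of ferroportin mRNA, so of these targets TFRC is the one whose regulation is read most directly in an RNA level. In the testis iron serves mitochondria, steroid-forming cytochromes and dividing germ cells.

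TFRC lies on chromosome 13 from 133976765 to 133997554 (Sscrofa11.1, RefSeq). Its level in the Sow libraries was 717 CPM in the unnumbered library, 1213 CPM in Sow 2 and 611 CPM in Sow 3. The Milk libraries had 322, 195 and 148 CPM, and the Soy libraries had 372 CPM (unnumbered), 224 and 136 CPM. All 6 of these libraries lie below the lowest Sow library. The M+G libraries had 236, 249 and 164 CPM, within the range of Milk and Soy. The M+E2 libraries had 116, 122 and 94.8 CPM. Every Sow library lay above all 12 libraries of the formula-fed groups, and every M+E2 library lay below all 12 libraries of the other groups. Over the 15328 genes with enough reads in all 15 libraries, 7.72% separated with Sow higher and 2.31% with M+E2 lower. Because TFRC was chosen for its pattern, nothing is read from these shares.

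**Figure D1:**
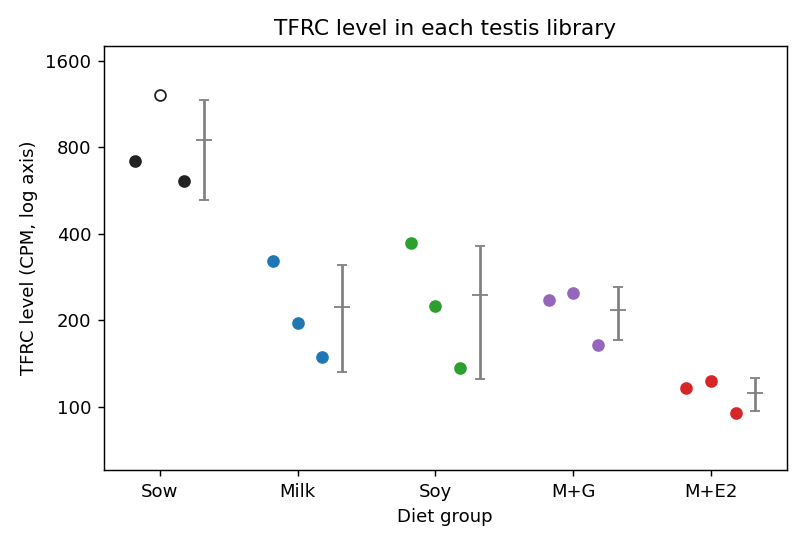
TFRC level in CPM (log axis) in each of the 15 testis libraries, by diet group. Coloured points are libraries, the open point is Sow 2, and the grey dash with bars is the mean ± SD of the 3 libraries. The Sow points sit between 611 and 1213 CPM and the M+E2 points between 94.8 and 122 CPM, with the Milk, Soy and M+G points in between and overlapping each other.

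In order of mean level, Sow was followed by Soy (244 ± 119 CPM; SD, n = 3), Milk (222 ± 90.1), M+G (216 ± 45.5) and M+E2. Soy, Milk and M+G do not differ beyond their spread, since their ranges overlap and their means differ by less than 1 SD. Without Sow 2 the Sow mean was 664 ± 74.8 CPM (SD, n = 2), still above the highest formula-fed library, the unnumbered Soy library. The 12 formula-fed libraries span 94.8 to 372 CPM, of which Soy alone covers 136 to 372 CPM.

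The fitted log2 fold changes of TFRC relative to Sow were −2.65 (SE 0.39) for M+E2, −1.66 (SE 0.38) for M+G, −1.62 (SE 0.38) for Milk and −1.45 (SE 0.38) for Soy. As folds these are 6.27, 3.15, 3.07 and 2.74 times lower than Sow. The 4 comparisons share the same Sow libraries. Relative to Milk, TFRC differed by −1.03 (SE 0.35) in M+E2, by −0.04 (SE 0.35) in M+G and by 0.17 (SE 0.35) in Soy, on the log2 scale. Relative to Soy, it differed by −1.19 (SE 0.35) in M+E2. With Sow 2 put back, the value for M+E2 relative to Sow was −2.93.

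STEAP3, the endosomal ferrireductase, lies on chromosome 15 from 24736556 to 24785376 and was the least read of the 7 genes, with 21 to 198 reads per library. Its level was 5.25, 3.07 and 7.19 CPM in Sow, in the order unnumbered, 2 and 3. It was 6.36, 3.97 and 17.7 CPM in Milk and 7.49, 10.3 and 22.6 CPM in Soy. The highest Milk and Soy values are those of the libraries with the lowest TFRC of their group, Milk 3 and Soy 3. In M+E2 it was 8.38, 11.8 and 7.14 CPM, which overlaps Sow, and in M+G it was 9.63, 8.16 and 13.4 CPM. The M+G and the Soy libraries lay above all 3 Sow libraries. Relative to the 2 Sow libraries of the comparisons, to which each such share of all genes here refers, 27.5% and 18.4% of all genes separated in that direction. None of its differences passed an adjusted p of 0.05 (edgeR's quasi-likelihood F test, Benjamini-Hochberg over the 15634 genes tested, as for every adjusted p here). Relative to Sow the log2 fold changes of STEAP3 were 0.48 (SE 0.57) in M+E2, 0.70 (SE 0.57) in M+G, 0.55 (SE 0.57) in Milk and 1.11 (SE 0.57, adjusted p = 0.347) in Soy.

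FTL, the light chain of ferritin, lies on chromosome 6 from 54231121 to 54232756 and had 20392 to 91486 reads per library. Ferritin genes have many processed copies in mammalian genomes, so the share of these reads that belongs to FTL itself is uncertain. The FTL level in Sow was 7807 CPM in the unnumbered library, 13360 CPM in Sow 2 and 6214 CPM in Sow 3. It was 10561, 5342 and 4861 CPM in Milk, 10616, 4850 and 3238 CPM in Soy, and 5398, 6625 and 7228 CPM in M+G. In M+E2 it was 2947, 4580 and 3132 CPM, below every Sow and Milk library but overlapping Soy. Such a separation with M+E2 lower was seen for 28.6% of all genes tested relative to Sow and for 7.77% relative to Milk. FTL was 2.07-fold lower in M+E2 than in Sow (log2 fold change −1.05, SE 0.47, adjusted p = 0.139) and did not pass the adjusted test. Relative to Milk it was −1.0 (SE 0.43, adjusted p = 0.264) in M+E2.

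In Milk and in Soy the library with more TFRC also had more FTL, whereas in M+G the library with the least TFRC had the most FTL. The log2 ratio of TFRC to FTL counts was −3.42 ± 0.0621 (SD, n = 3) in Sow, with Sow 2 included. It was −4.61 ± 0.201 in Soy, −4.91 ± 0.493 in M+G, −4.95 ± 0.150 in Milk and −4.98 ± 0.285 in M+E2 (n = 3 each). The Sow values lie above all others in this ratio and in those of TFRC to SLC40A1, NCOA4 and IREB2, from which nothing is read, since TFRC was selected on its levels in these groups. M+E2 and Milk overlapped in the ratios of TFRC to FTL and to NCOA4. They did not overlap in those to SLC40A1 (−0.83 to −0.44 in M+E2, −0.34 to 0.36 in Milk) and IREB2 (0.14 to 0.76 and 0.81 to 1.56). For the same reason nothing is read from these M+E2 and Milk ratios. A ratio of counts is compared here only between libraries, since the 2 genes differ in length.

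NCOA4, the receptor that delivers ferritin to autophagosomes, lies on chromosome 14 from 90505614 to 90531302. Its level in M+E2 was 172, 135 and 146 CPM. All 12 libraries of the other groups were higher, between 218 CPM in Soy 3 and 347 CPM in Soy 2. The Sow libraries had 302, 332 and 280 CPM, the Milk libraries 324, 249 and 251 CPM, and the M+G libraries 303, 244 and 263 CPM. Among the 6 genes other than TFRC it was alone in separating M+E2 from all 12 others, which 2.31% of all genes did with M+E2 lower. NCOA4 was 2.02-fold lower in M+E2 than in Sow (log2 fold change −1.01, SE 0.22, adjusted p = 0.0374). The call was lost without any 1 of the 3 M+E2 libraries, without Soy 2, without M+G 1 or without M+G 3 (adjusted p up to 0.123). The log2 fold change in these settings was −0.93 to −1.14, and the calls over all genes fell from 781 to between 6 and 45. M+E2 lay below Soy without overlap for NCOA4, SLC40A1 and IREB2, as it did for 7.78% of all genes. Relative to Milk NCOA4 was at −0.89 (SE 0.20, adjusted p = 0.186) and relative to Soy −1.0 (SE 0.20, adjusted p = 0.0796) in M+E2, neither past the adjusted test. Over the alternative settings the adjusted p of these last 2 values ran from 0.00681 to 0.551 and from 0.000348 to 0.334.

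SLC40A1, the iron exporter ferroportin, lies on chromosome 15 from 94140635 to 94161793. The Sow libraries had 273, 270 and 258 CPM and the M+E2 libraries 172, 167 and 168 CPM, so both groups were tight and did not overlap, like 28.6% of all genes with M+E2 lower. Milk (303, 152 and 187 CPM) and Soy (287, 225 and 192 CPM) each spanned a wide range that overlapped Sow. The M+G libraries had 245, 188 and 163 CPM. SLC40A1 differed between M+E2 and Sow by −0.72 on the log2 scale (SE 0.28, adjusted p = 0.0937), which did not pass the test.

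IREB2, which encodes iron regulatory protein 2, lies on chromosome 7 from 47481539 to 47529199. Its level was 129, 134 and 126 CPM in Sow and 75.1, 72.5 and 86.3 CPM in M+E2. The Milk libraries had 110, 77.8 and 84.4 CPM, the M+G libraries 99.6, 84.1 and 75.8 CPM, and the Soy libraries 110, 128 and 97.4 CPM. Sow lay above M+E2, M+G and Milk without overlap, while Soy 2 reached into the Sow range. Separation with Sow higher was seen for 28.6% of genes relative to M+E2, 26.4% relative to M+G and 15.3% relative to Milk. The log2 fold change of IREB2 between M+E2 and Sow was −0.78 (SE 0.19, adjusted p = 0.0404). This passed the adjusted test and not the 2-fold threshold. The adjusted p rose above 0.05 without any 1 of the M+E2 or M+G libraries, without Soy 2 and with no filter on low counts (up to 0.128). In M+G it was −0.60 (SE 0.19, adjusted p = 0.138) and in Milk −0.53 (SE 0.19, adjusted p = 0.380) relative to Sow.

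ACO1, which encodes iron regulatory protein 1, an aconitase when it holds an iron-sulfur cluster, lies on chromosome 10 from 33937833 to 34001895. Its level was 146, 149 and 170 CPM in Sow and 191, 168 and 144 CPM in M+E2. Over all 15 libraries it ranged from 98.3 CPM in Milk 2 to 234 CPM in M+G 1, and the groups overlapped in all 8 comparisons. The log2 fold change between M+E2 and Sow was 0.02 (SE 0.28), with a 95% interval from −0.58 to 0.62.

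**Figure D2:**
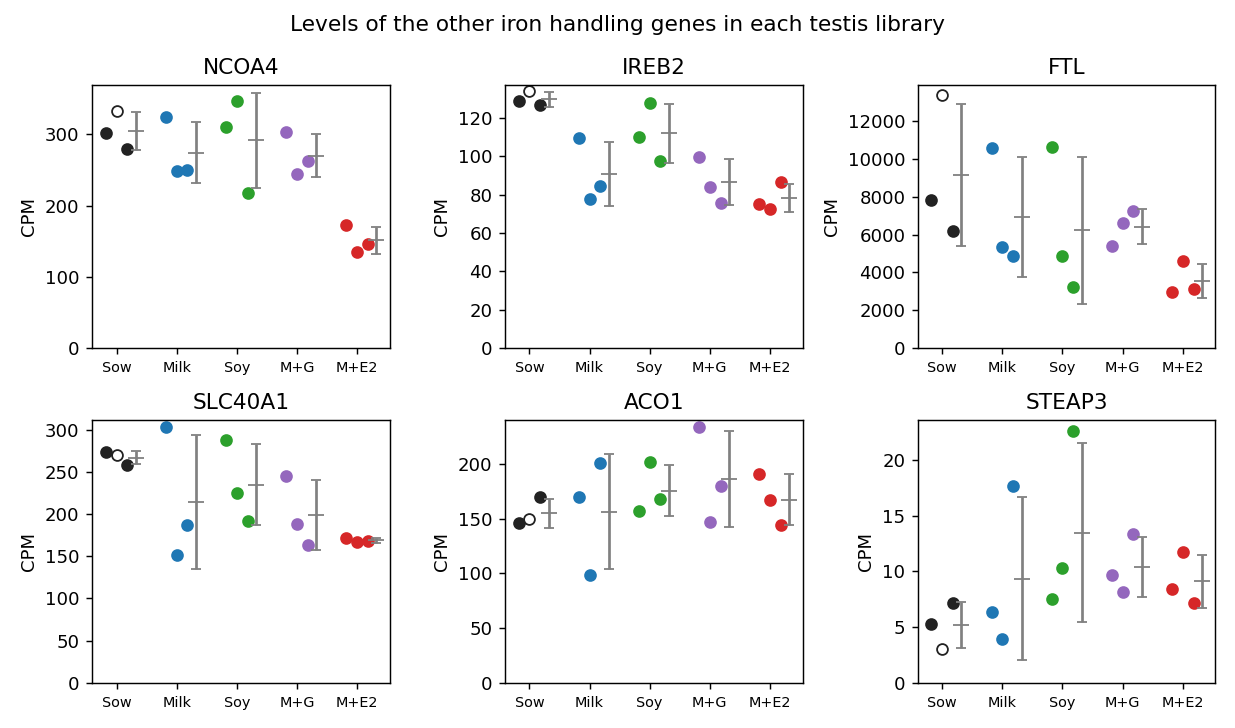
Level in CPM of the 6 other iron handling genes in each of the 15 testis libraries, by diet group, each panel with its own axis from 0. Coloured points are libraries, the open point is Sow 2, and the grey dash with bars is the mean ± SD (n = 3). NCOA4 in M+E2 lies between 135 and 172 CPM, below all other libraries, while ACO1 overlaps between the groups of all 8 comparisons.

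Counted over the 6 genes other than TFRC, 1 was called lower in M+E2 than in Sow at an adjusted p of at most 0.05 and a change of at least 2-fold. That is 16.7% of them, beside 5.0% of all 15634 genes called in either direction and 3.56% called lower. Of the 6, 4 had an unadjusted p under 0.05 (FTL, SLC40A1, IREB2 and NCOA4), against 33.8% of all genes. Their median log2 fold change was −0.75, and that of all genes 0.01. In M+G relative to Sow none of the 6 was called, beside 0.0576% of all genes, and 1 (IREB2) had an unadjusted p under 0.05, against 23.6% of all genes. Likewise 0 of 6 were called for Soy relative to Sow (0.0128% of all genes; 0 at an unadjusted p under 0.05, against 15.0% of all genes) and for Milk relative to Sow (0.0192%; 1, IREB2, against 12.1%).

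Within the formula-fed groups 0 of the 6 were called in M+E2 relative to Milk, where 0.00% of all genes were, with 2 (FTL and NCOA4) at an unadjusted p under 0.05, against 17.7% of all genes. Without Milk 3, 1256 genes were called in place of 0, and NCOA4 was at −0.95 (adjusted p = 0.0208, over the alternatives 0.00681 to 0.551). DESeq2 called 122 genes in this comparison and the exact test 92. In M+E2 relative to Soy 0 of 6 were called, beside 0.147% of all genes, with 2 (IREB2 and NCOA4) at an unadjusted p under 0.05, against 13.0% of all genes. None of the 6 was called, or had an unadjusted p under 0.05, in M+G relative to Milk (0.00% of all genes called) or in Soy relative to Milk (0.00%). edgeR's exact test and DESeq2's Wald test also called 0 of the 6 in each of these 7 comparisons. In M+E2 relative to Sow DESeq2 called NCOA4, and the exact test called FTL and put NCOA4 just under 2-fold. For M+G relative to Milk the log2 fold changes of the 6 genes lay between −0.11 (FTL) and 0.26 (ACO1), and for Soy relative to Milk between −0.12 (FTL) and 0.56 (STEAP3).

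**Figure D3:**
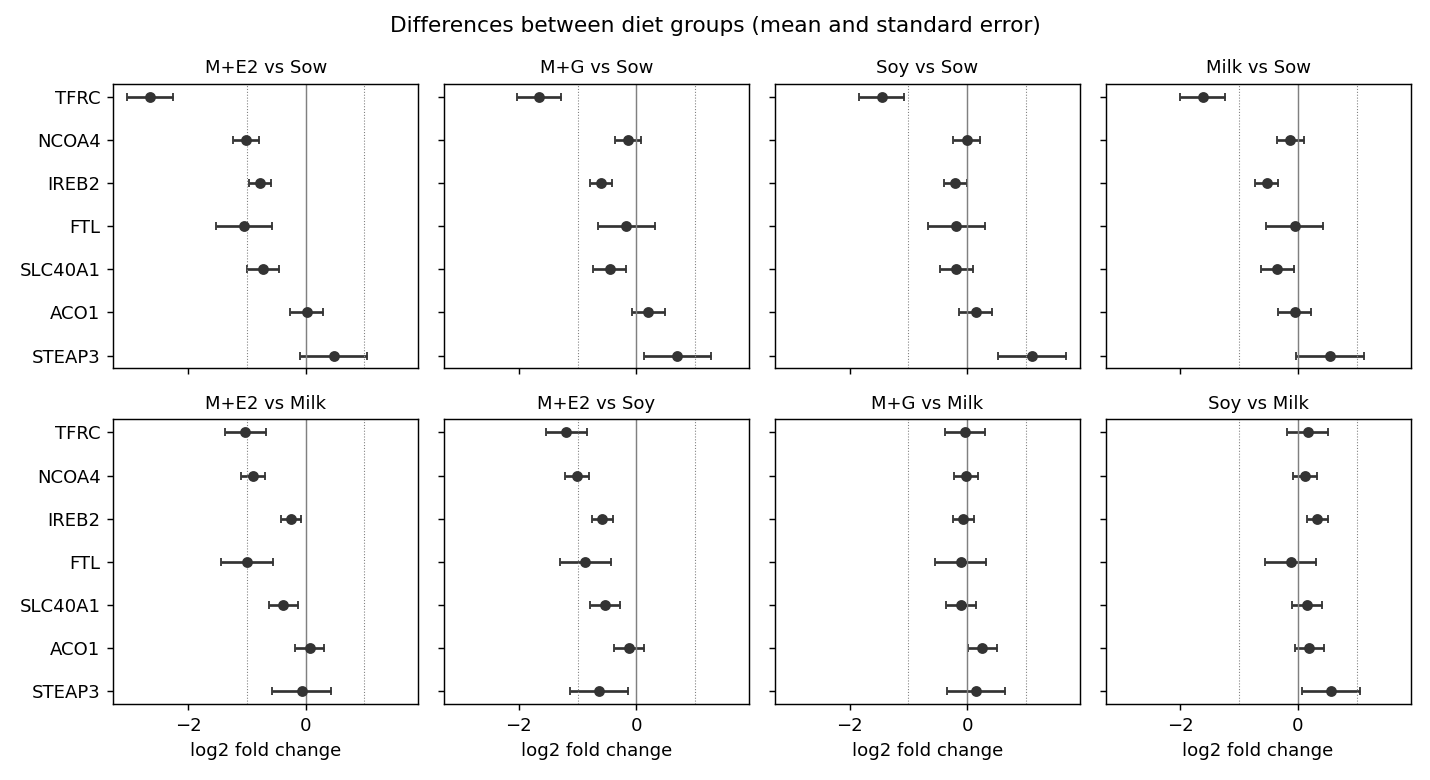
Fitted log2 fold change (point) and standard error (bar) of the 7 genes in the 8 comparisons, with dotted lines at a 2-fold change in either direction. TFRC lies between −2.65 and −1.45 in the 4 comparisons with Sow and near 0 in M+G and Soy relative to Milk, while the 6 other genes lie closer to 0 than TFRC in each comparison with Sow.

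A wider list of 88 genes of iron uptake, storage, export, regulation, iron-sulfur clusters and heme was read beside the 7. The table held 79 of them and 73 were tested. In M+E2 relative to Sow 6 of the 73 (8.22%) were called, all lower, beside 5.0% of all genes in either direction and 3.56% called lower. The list was chosen with earlier results of these data known. An unadjusted p under 0.05 was seen for 33 of the 73, against 33.8% of all genes. The median log2 fold change of the 73 was −0.26, with 48 of 73 lower, and that of all genes 0.01. The count moved with single libraries. It was 14 with Sow 2 put back, 1 without M+G 1, 2 without M+G 2, and 0 without any 1 M+E2 library, without Soy 2 or without M+G 3. In the settings that gave 0, the calls over all genes fell from 781 to between 6 and 38.

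By role, 2 of 16 uptake genes (12.5%) were called, beside 5.0% of all genes called in either direction and 3.56% called lower. SNX3, a sorting nexin that returns the transferrin receptor to the cell surface, was at 92.8 ± 15.7 CPM (SD, n = 3) with M+E2 and 198 ± 5.85 CPM (n = 2) with Sow (log2 fold change −1.16, SE 0.33, adjusted p = 0.0484). SLC39A8, a transporter of zinc, manganese and iron, differed by −1.02 (SE 0.22, adjusted p = 0.0374) and is named after its values were seen, being outside the 4 largest falls. The median over the uptake genes was −0.20.

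Of 25 genes of iron-sulfur clusters and mitochondrial iron, 3 were called and 19 had a lower value in M+E2. FDX1, the ferredoxin that passes electrons to mitochondrial cytochromes P450 of steroid synthesis, had 665 ± 89.2 CPM in M+E2 (SD, n = 3) and 1595 ± 292 CPM in Sow (n = 2), a log2 fold change of −1.33 (SE 0.34, adjusted p = 0.0414). ISCA2, a late assembly factor of mitochondrial clusters, differed by −1.41 (SE 0.34, adjusted p = 0.0391). NFS1 (−0.84, adjusted p = 0.0497) and ISCU (−0.77, adjusted p = 0.0440), the desulfurase and the scaffold of cluster synthesis, passed the adjusted test and not the 2-fold threshold, and are named here after their values were seen. The median over the 25 was −0.52.

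Of 13 heme genes, 1 (7.69%) was called, beside 3.56% of all genes called lower, and 12 had a lower value in M+E2. The median of the 13 was −0.61, and that of all genes 0.01. The share of all genes with a lower value was not counted, and the calls by role are not read as a result about a role. FECH, the ferrochelatase that inserts iron into protoporphyrin, reached 49.7 ± 2.40 CPM in M+E2 (SD, n = 3) and 101 ± 5.66 CPM in Sow (n = 2), a log2 fold change of −1.09 (SE 0.20, adjusted p = 0.0343). CPOX (−0.77, adjusted p = 0.0374), an enzyme of the same pathway, and HEBP1 (−0.89, adjusted p = 0.0475), a heme-binding protein, passed the adjusted test under 2-fold and are also named after their values were seen. Storage and chaperones (4 tested), export and systemic control (8) and regulators (7) had 0 called, with medians of −0.25, 0.42 and 0.08.

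In the other 7 comparisons 0 of the 73 were called by the quasi-likelihood test. For M+G relative to Sow 17 of the 73 had an unadjusted p under 0.05, where 23.6% of all genes did. The exact test called 3 of the 73, of 955 genes it called in all, and DESeq2 called 2, of 343. For Soy and Milk relative to Sow 10 and 5 of the 73 had an unadjusted p under 0.05 (15.0% and 12.1% of all genes), and both other tools called 0. For M+E2 relative to Milk and to Soy the numbers were 21 and 20 of the 73, beside 17.7% and 13.0% of all genes. For M+G relative to Milk it was 0 of the 73 (2.60% of all genes) and for Soy relative to Milk 2 (2.44%). Again 0 were called by either other tool. All 13 heme genes had a lower value in M+E2 than in Milk, with a median log2 fold change of −0.50 beside −0.03 over all genes. These 2 comparisons with M+E2 share its libraries with the comparison to Sow.

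**Figure D4:**
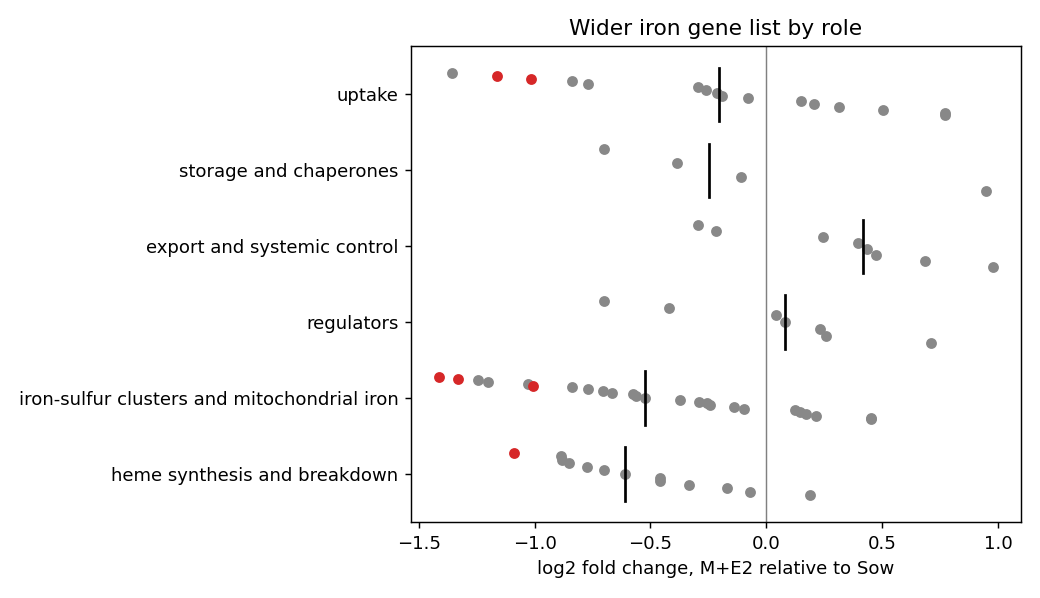
Log2 fold change between M+E2 and Sow of the 73 tested genes of the wider iron list, by role. Each point is a gene, red points are the 6 called genes and black bars are the medians, which run from −0.61 for heme synthesis and breakdown to 0.42 for export and systemic control.

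Over the 15 libraries the genes whose log2 CPM followed TFRC most closely were NIPSNAP3A (Pearson's r = 0.976), ETFA (0.973), NDUFA9 (0.972), ETFRF1 (0.971) and ACAD11 (0.971). ETFA encodes a chain of the electron transfer flavoprotein, NDUFA9 a subunit of respiratory complex I and ACAD11 an acyl-CoA dehydrogenase. ETFA had means of 366 CPM in Sow and 99.8 CPM in M+E2, with 180, 174 and 155 CPM in Milk, Soy and M+G. The genes that ran most opposite to TFRC were DCHS1 (r = −0.972), AMPD2 (−0.967), SLC6A9 (−0.966), RPS6KA2 (−0.964) and COL27A1 (−0.964). DCHS1, a large protocadherin, had means of 31.3 CPM in Sow and 149 CPM in M+E2. The 15 points share their diet groups, so the correlations were also taken with each library centred on its group mean, which gave 0.958 for ETFA and −0.954 for DCHS1.

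Such likeness was common: 498 of 15327 genes had an r of at least 0.9 with TFRC and 422 an r of −0.9 or less, together 6.0%, and 2.47% had one this far from 0 within groups. Among the 6 other genes r with TFRC was 0.815 for IREB2, 0.807 for FTL, 0.780 for SLC40A1, 0.713 for NCOA4, −0.158 for ACO1 and −0.638 for STEAP3. Within groups r was 0.871 for FTL, 0.698 for SLC40A1, 0.656 for NCOA4, 0.501 for IREB2, −0.081 for ACO1 and −0.718 for STEAP3. Without Sow 2, r over the libraries was 0.793 for SLC40A1, 0.782 for IREB2, 0.731 for FTL and 0.715 for NCOA4. In the same setting it was −0.093 for ACO1 and −0.475 for STEAP3.

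TFRC moved with the main axis of difference between the libraries. The first principal component of log2 CPM over all genes but the 7 held 43.7% of the variance and ran from −46.3 in Soy 3 to 95.4 in Sow 2. TFRC had an r of 0.930 with it over all libraries and 0.883 within groups. For STEAP3 the values were −0.837 and −0.910, and for FTL 0.798 and 0.787. M+E2 1 and M+E2 2 (−39.4 and −41.4) had scores near those of Milk 3 (−41.2) and Soy 3 (−46.3) and less TFRC than both. M+E2 3, with the least TFRC, scored −21.1, between M+G 3 (−30.5) and M+G 1 (−15.0). The part of this component in the TFRC differences was not tested.

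**Figure D5:**
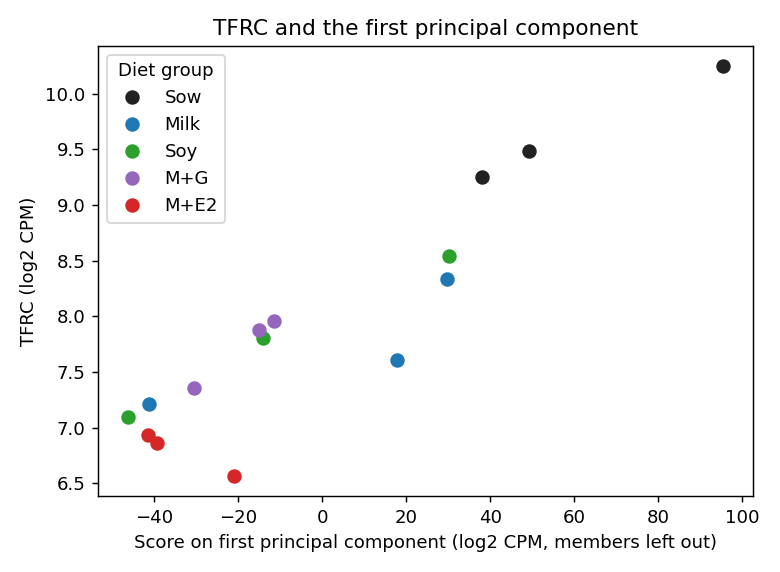
TFRC in log2 CPM (vertical axis) and the library score on the first principal component, computed without the 7 iron handling genes (horizontal axis), for the 15 libraries coloured by diet group. TFRC rises with the score, and the M+E2 libraries, at scores from −41.4 to −21.1, lie lowest.

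TFRC is most abundant in red cell precursors and dividing cells, and whole testis was sequenced, so fewer cells of a type and less RNA per cell cannot be told apart. The summed level of erythroid markers (15 of 20 in the table) was 540 to 620 CPM in Sow, 410 to 1519 in Milk, 535 to 972 in Soy, 486 to 1378 in M+G and 271 to 640 in M+E2, most of it HBB, and its r with TFRC over the libraries was 0.173. The Sow sums lay inside the range of the formula-fed groups, and the part of red cells in the TFRC differences was not tested. Of the defining genes, SLC4A1 had 1 to 3 reads per Sow library, at the floor of 3 reads, 4 to 48 in M+E2, 11 to 24 in M+G, 4 to 11 in Milk and 4 to 6 in Soy, while ALAS2 had 14.8 to 19.3 CPM in Sow and 6.50 to 16.4 CPM in M+E2.

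Markers of dividing cells (7 of 10 in the table) summed to 514 to 709 CPM in Sow, 384 to 555 in Milk, 318 to 423 in Soy, 349 to 434 in M+G and 400 to 495 in M+E2, with an r of 0.654 with TFRC. Macrophage markers (13 of 14) summed to 382 to 912 CPM over all libraries with an r of 0.036, and the defining genes CD68 and CD163 were above 0 in every library. Leydig cell markers (7 of 8) were 13690 to 14560 CPM in M+E2 and 19990 to 20590 in Sow, with 10820 to 25390 over all libraries. The lowest of these sums was that of a Milk library. Sertoli cell markers (10 of 10) were 7363 to 8205 CPM in M+E2 and 4851 to 5421 in Sow, and reached 7601 in M+G. Germ cell markers (10 of 12) were 315 to 365 CPM in M+E2 and 209 to 248 in Sow, and reached 336 in Soy. The r with TFRC was 0.442 for Leydig, −0.316 for Sertoli and −0.508 for germ cell markers. Relative to Sow, Leydig markers were thus lower, and Sertoli and germ cell markers higher, in the M+E2 libraries. These are the libraries in which NCOA4, IREB2 and the heme and iron-sulfur genes above were lower. Without the marker with the most reads, the log2 difference of Sow minus M+E2 went from −0.56 to −0.24 for the germ cell sum, from 0.45 to 0.13 for dividing cells, from 0.41 to 0.06 for erythroid cells, from −0.56 to −0.78 for Sertoli cells and from 0.53 to 0.84 for Leydig cells. The part of cell makeup in these differences was not tested.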

How the data were processed

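Frozen testes were sequenced as short single-end reads. Per the study's methods, the authors mapped reads in CLC Genomics Workbench 20.01 to a curated pig gene library and then to Ensembl's pig assembly 11.1, and deposited read counts per gene and library without normalization. Which mapping step the counts hold was not determined. Diet groups came from the labels. Columns without a number were used as libraries of their group.

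The genes and lists were chosen with earlier results of these data known. Named are the 10 genes, called genes of the wider list (at most 4 rising and 4 falling, with exceptions stated), the 5 genes most and least correlated with TFRC, and marker sums. The values of 1 called gene of the wider list are not reported here. Of the 161 genes on the lists, 6 were found through an identifier in a gene name table. Positions are from RefSeq Sscrofa11.1 by symbol.

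Tests ran in edgeR 4.0.16 and limma 3.58.1 under R 4.3.3: TMM, filterByExpr (minimum count 10), 1 quasi-likelihood fit of 5 groups over 14 libraries (without Sow 2, set aside in the study for low correlation), F test, and Benjamini-Hochberg adjustment over 15634 genes. DESeq2 1.42.0, edgeR's exact test, other filters and scalings and left-out libraries were alternatives. Levels are CPM with TMM over 15 libraries, log2 with a prior count of 1. The scripts were tested on simulated data. A count of 0 allows up to 3 reads, for counting error only.

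Same-numbered Milk and M+G libraries deviated together from their group means (r of 0.233, 0.510 and 0.425). The labels state no pairing, and with 3 libraries a group such values do not establish one. For Milk and Soy r was −0.479 for number 2 and 0.207 for number 3. Between M+E2 and Milk or M+G it ran from −0.339 to 0.123. Soy with M+E2 or M+G, and Sow with any group, were not compared in this way. The main fit used no pairing.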

Additional observations from a re-analysis of the deposited data

How the results depend on the processing

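TFRC kept its direction relative to Sow in every alternative, from which nothing is read, since it was selected on its levels in these groups. Left-out libraries are given over 14 settings, in 2 of which a Sow library was left out and Sow 2 put back, so that both choices changed. Over these TFRC ranged from −3.12 to −2.56 for M+E2, from −2.16 to −1.49 for M+G, from −1.98 to −1.17 for Soy and from −2.12 to −1.39 for Milk, the largest differences being those without Sow 3 and with Sow 2 put back. NCOA4, called in M+E2 relative to Sow, lost its call in 10 of 22 alternatives (adjusted p from 6.48e-08 to 0.123), by the fold threshold alone in 4 of them. The number of the 6 other genes called there was 2 with all 3 Sow libraries (FTL added), 0 without a filter on low counts, 0 with at least 10 counts in every library, 2 by adjusted p alone (IREB2 added) and from 0 to 2 with left-out libraries (at most 1 without Sow 2 put back). The wider list count there was 14 with all 3 Sow libraries, 10 by adjusted p alone and from 0 to 17 with left-out libraries (at most 9 without Sow 2 put back). The calls over all genes in that comparison ranged from 6 to 3324 with left-out libraries (at most 1533 without Sow 2 put back), and from 713 to 2767 otherwise. For M+G relative to Sow the wider list count was 7 with all 3 Sow libraries, 3 in a fit of these groups only, 2 with DESeq2, 3 with the exact test and from 0 to 8 with left-out libraries (at most 1 without Sow 2 put back). For M+E2 relative to Milk it ranged from 0 to 4, with 4 without Milk 3, and for M+E2 relative to Soy 1 of the 6 other genes (NCOA4) was called without Soy 3 and 0 otherwise. The cause was not tested.

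With left-out libraries, log2 fold changes that changed sign ranged from −0.11 to 0.18 for ACO1 in M+E2 relative to Sow, from −0.18 to 0.29 for ACO1 and from −0.44 to 0.79 for STEAP3 in M+E2 relative to Milk, and from −0.31 to 1.16 for STEAP3 in Milk relative to Sow. None of these was called in any setting. TFRC, given without a test, ran from −0.26 to 0.35 in M+G and from −0.28 to 0.56 in Soy, relative to Milk. The replicate number was also fitted as a block over Milk, M+E2, M+G and the numbered Soy libraries, a pairing the labels do not state. This was done for the comparisons without Sow, and no fit blocked Milk and M+G alone. With the block, STEAP3 in M+E2 relative to Milk was 0.17 and TFRC in Soy relative to Milk −0.15, against −0.07 and 0.17 without it. The block changed no other direction of TFRC, none of the 6 genes in M+E2 relative to Milk or Soy other than STEAP3, and no call of the 6 genes or the wider list. The 6 genes in M+G and Soy relative to Milk were compared under it by calls only. It leaves out the unnumbered Soy library, and in it the calls over all genes in M+E2 relative to Soy were 1, against 23 without it. No paired analysis was run for the comparisons with Sow, where with Sow 2 left out only Sow 3 carries a number. The other scaling shifted the median of all genes by at most 0.0113 on the log2 scale. Both scalings correct for differences in library composition. The TMM factors were 0.762 to 0.957 in Sow and 1.09 to 1.14 in M+E2. How far the fold changes rest on such a correction was not tested. With 2 or 3 libraries a group and 1 Sow library set aside, the data do not fix which genes near the threshold are called.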
